A study of Sus scrofa with 5 samples.

Results

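Genes for the proteins that splice pre-mRNA were followed in the backfat of 5 pigs. They were taken from the probe annotation of the array as the genes whose symbol begins with SF3A, SF3B, SRSF, SNRP, SNRNP, HNRNP, PRPF, or LSM and a digit, from probe sets with a single symbol. This gave 64 genes of the 6765 with such a probe set, and 102 probe sets of 10069. Where a gene had several probe sets, as 22 of the 64 did, the one with the highest mean over the 5 arrays stood for it. The rule used the symbols and, beyond that choice of probe set, no measured value. The families in it were chosen with earlier results of these data known.

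The animals were females of an Iberian × Landrace backcross (BC1_LD), raised on the same commercial feed and slaughtered at a similar age, with no treatment and no introduced allele. The study placed each animal in a High (H) or a Low (L) group by its score on the leading principal component of traits of carcass quality and intramuscular fatty acid composition. The groups thus stand at opposite ends of muscle fatty acid composition. BC4, BC5 and BC6 were H animals and BC2 and BC3 were L animals, each with 1 array of total RNA, and the labels themselves give only the animal names. Both groups come from 1 segregating cross.

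Splicing removes introns from new transcripts. Small nuclear ribonucleoproteins (snRNPs), each built of a short RNA and its proteins, recognise the ends of an intron and its branch point and assemble step by step into the spliceosome. SR proteins and heterogeneous nuclear ribonucleoproteins (hnRNPs) bind exons and introns and, often with opposite effects, steer which sites are used. In fat cells this choice is known to shape the isoforms of metabolic genes and of the receptors that answer to insulin.

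All 64 genes were above the floor of the array on every animal, and no member passed the test between H and L. The floor is the lowest deposited value, 2.17 on the log2 scale, and values within 0.05 of it were taken as unmeasured. Passing in limma meant a fold difference of at least 1.2 with an unadjusted p-value under 0.01 and, adjusted over all 23999 probe sets by Benjamini-Hochberg, under 0.1. Of these 0.00% passed, so the 0 of 64 stood against a background of none. An unadjusted limma p under 0.05 was found for 8 of 64 members (12.5%), against 3.18% of all probe sets and 5.18% of the 5677 genes above the floor. The mean was higher in H for 7 of them, SF3B1, SNRNP35, SNRNP40, SRSF1, HNRNPDL, HNRNPU and PRPF4B, a direction taken by 1.60% of probe sets and 2.22% of genes at that p. It was lower in H for SF3B5, as for 1.58% of probe sets and 2.96% of genes. The count did not hold in every setting. Without the dimmest 40% of probe sets it was 4 of 63, against 4.42% of those probe sets. Without BC4 it was 4 of 64, against 3.63% of all probe sets. The latter share includes probe sets at the floor, and the share of genes above the floor was not taken in these settings.

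The means lay more often on the side of H. The mean of H was above that of L for 50 of the 64 genes (78.1%), against 49.4% of the genes above the floor, and the median difference was 0.12 on the log2 scale, against 0.00. With each array centred on its own median, 43 of 64 had the higher mean in H, against 41.2% of genes. The 3 H arrays lay all above or all below the 2 L arrays for 19 members (29.7%), against 18.7% of genes above the floor. Of these, 16 had H above L, where the share of genes was 8.46%, and 3 had H below L, where it was 10.3%. Without BC2 the median was 0.07 and 39 members had the higher mean in H, and without BC3 they were 0.23 and 51. Genes can vary together between animals, so the counts describe these 5 animals only.

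**Figure D1:**
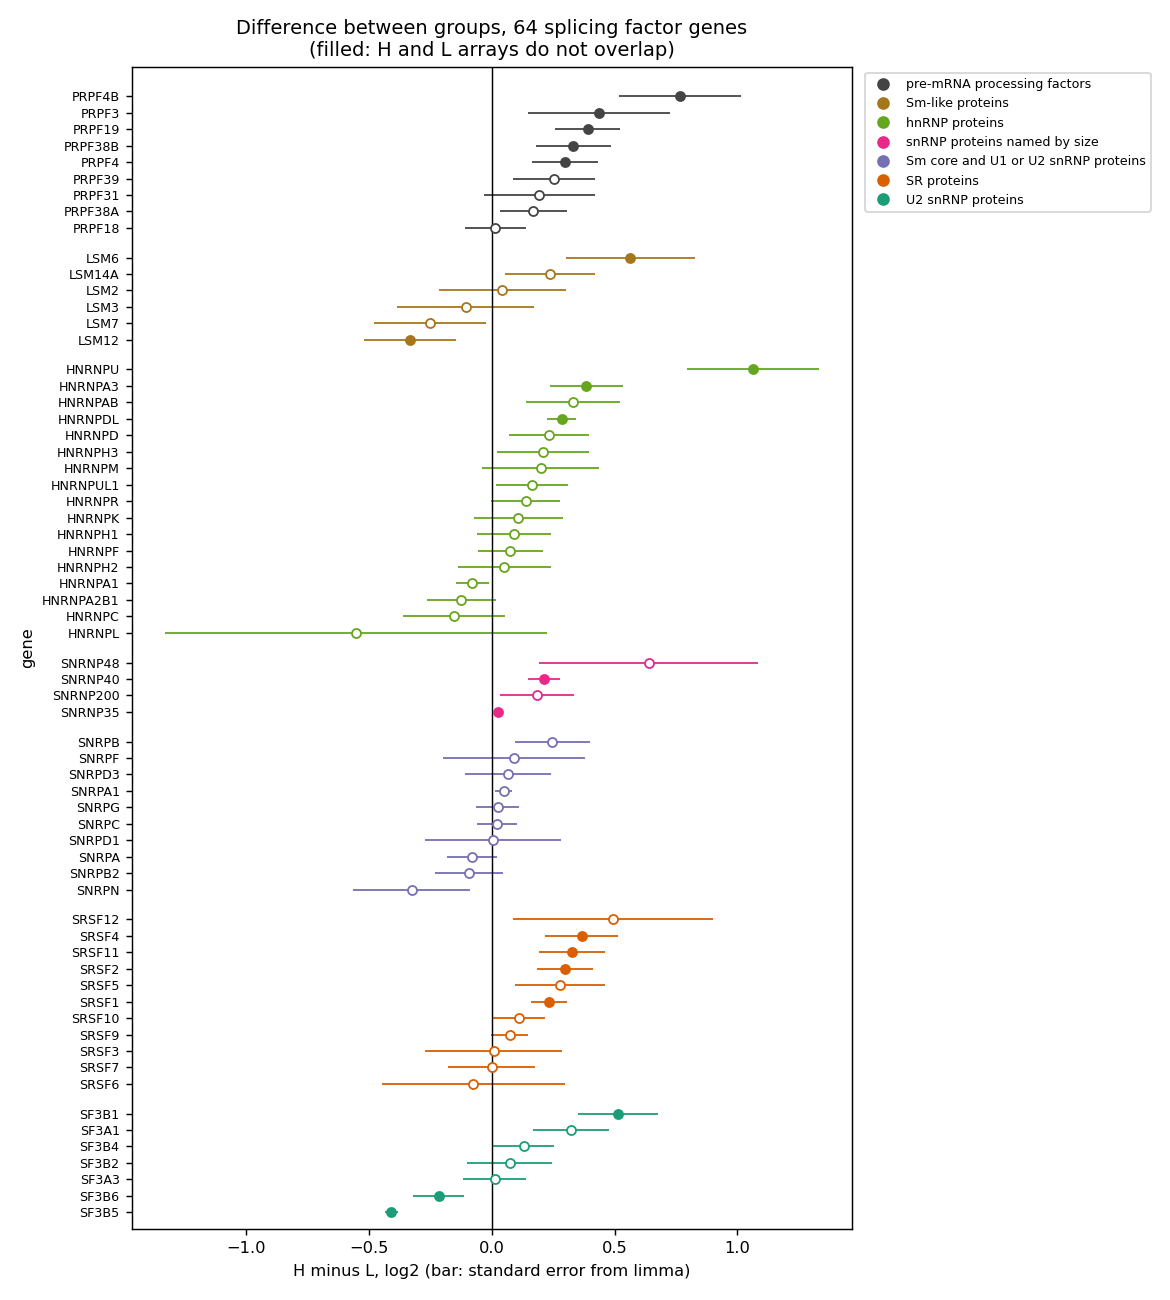
Difference between the group means, H minus L on the log2 scale, for each of the 64 splicing factor genes, with the standard error from limma as a bar and colours for the role groups. Filled points mark the 19 genes whose H and L arrays do not overlap, and 50 of the 64 points lie to the right of 0.

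The arrays were checked against their label before the members were read. Backfat is the tissue given by the sample label and the study's methods, but the note on RNA extraction speaks of liver. FABP4, the fatty acid carrier of adipocytes, was at 15.36 to 15.49 on all 5 arrays, and ALB, the plasma albumin made by hepatocytes, at 2.58 to 4.69. APOA1, an apolipoprotein made by hepatocytes, was bright, at 11.29 and 11.98 in L and 12.20, 12.57 and 12.34 in H, with all H arrays above both L arrays. Adiponectin (ADIPOQ) ran from 9.09 on BC5 to 12.20 on BC4. The 5 measured of 10 adipocyte markers had a mean log2 value of 11.70 and 12.23 on the L arrays and of 10.46 to 12.24 on the H arrays, where BC5 was the lowest. The 6 measured of 9 skeletal muscle markers averaged 2.64 and 4.30 in L and 2.45 to 5.76 in H, where BC5 was the highest. The 6 measured of 10 hepatocyte markers, APOA1 included, averaged 4.02 and 4.42 in L and 4.02 to 4.51 in H, and 2 more were at the floor. Macrophage markers (5 of 8 measured) averaged 6.01 and 6.45 in L and 5.47 to 7.43 in H, with BC6 the highest. Endothelial markers (5 of 6) averaged 10.06 and 10.88 in L and 10.49 to 11.41 in H, fibroblast markers (3 of 6) 10.90 and 11.10 in L and 10.09 to 11.79 in H, and 1 more of each list was at the floor. Of 5 lymphocyte markers with a probe set, 4 were at the floor. The log2 distance between the 3′ and 5′ control probe sets of Gapdh, which grows as RNA is degraded or copied short, was 1.52 and 1.82 in L and 1.81 to 2.49 in H, with BC5 the largest. The same distance for actin was 4.06 and 4.77 in L and 4.03, 4.80 and 3.85 in H, so that BC5 there lay close to BC3. In bulk tissue, fewer cells of a type and less RNA per cell cannot be told apart.

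Most members gave a bright signal. Within each array, 40 of the 64 were above the 80th percentile of all probe sets on all 5 arrays and 25 above the 90th. The median rank of the 64 was 88.4, against 75.1 for the 5677 genes above the floor, also with their brightest probe set. It was 87.1 for 70 other genes of the splicing pathway, read further below. Ranks give the order of signal on the array and not of transcript abundance, since each probe set has its own affinity. By role, the median rank was the 94.5th percentile for the 17 hnRNP genes, 93.8 for the 11 SR genes, 89.8 for the 7 U2 snRNP genes and 84.2 for the 10 Sm core and U1 or U2 snRNP genes. It was 77.1 for the 9 pre-mRNA processing factors, 76.5 for the 4 snRNP genes named by size and 72.5 for the 6 Sm-like genes. SF3B1 stayed between the 98.5th and 99.2nd percentile, and SRSF11 between 98.6 and 99.1. At the other end, SNRNP35 and SF3B4 were below the 50th percentile on every array.

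The spread between animals was slightly smaller than in other genes. The median SD over the 5 animals was 0.214 in the 64 members and 0.247 in the 5613 other genes above the floor, and 41 members lay under the latter value. In 70 other genes of the splicing pathway the median SD was 0.190. The members were also brighter than the 5613 genes, with a median log2 value of 9.46 against 7.81, and the comparison was not matched for signal. HNRNPL varied most, with an SD of 0.837, and HNRNPU (0.642) and SNRNP48 (0.568) came next. SNRPA1 varied little at a mid-range signal, with an SD of 0.0421, and SNRNP35, near the floor, had 0.0129; both hold the same value on several arrays.

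**Figure D2:**
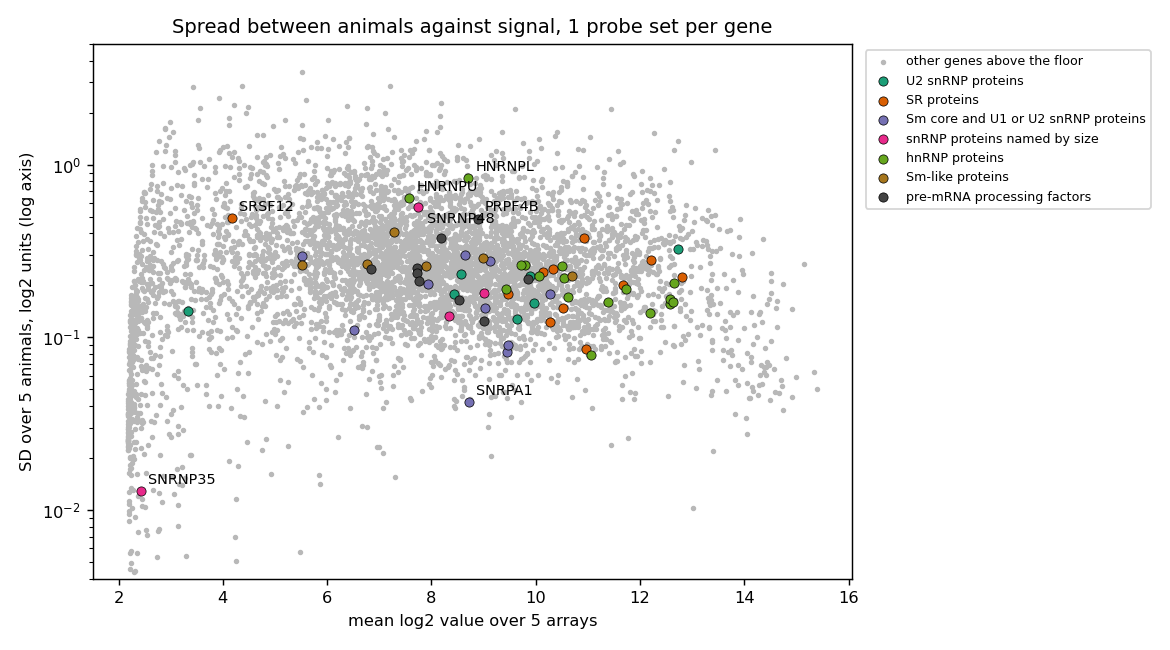
SD over the 5 animals, in log2 units on a log axis, against the mean log2 value over the 5 arrays, with 1 point per gene, grey for other genes above the floor and coloured by role for the 64 splicing factor genes. HNRNPL has the largest SD of the members at 0.837, and 94 other genes with an SD under 0.004 are not drawn.

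BC2 was the lowest of the 5 arrays for 27 members (42.2%), against 29.0% of other genes, and BC5 the highest for 25 (39.1%), against 22.3%. BC6 was the highest for 18 (28.1%), against 20.7%. BC2 also had the lowest mean of the endothelial markers, and BC5 the lowest mean of the adipocyte markers, the highest of the muscle markers and the widest Gapdh distance. The part of these differences in the members' values was not tested.

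**Figure D3:**
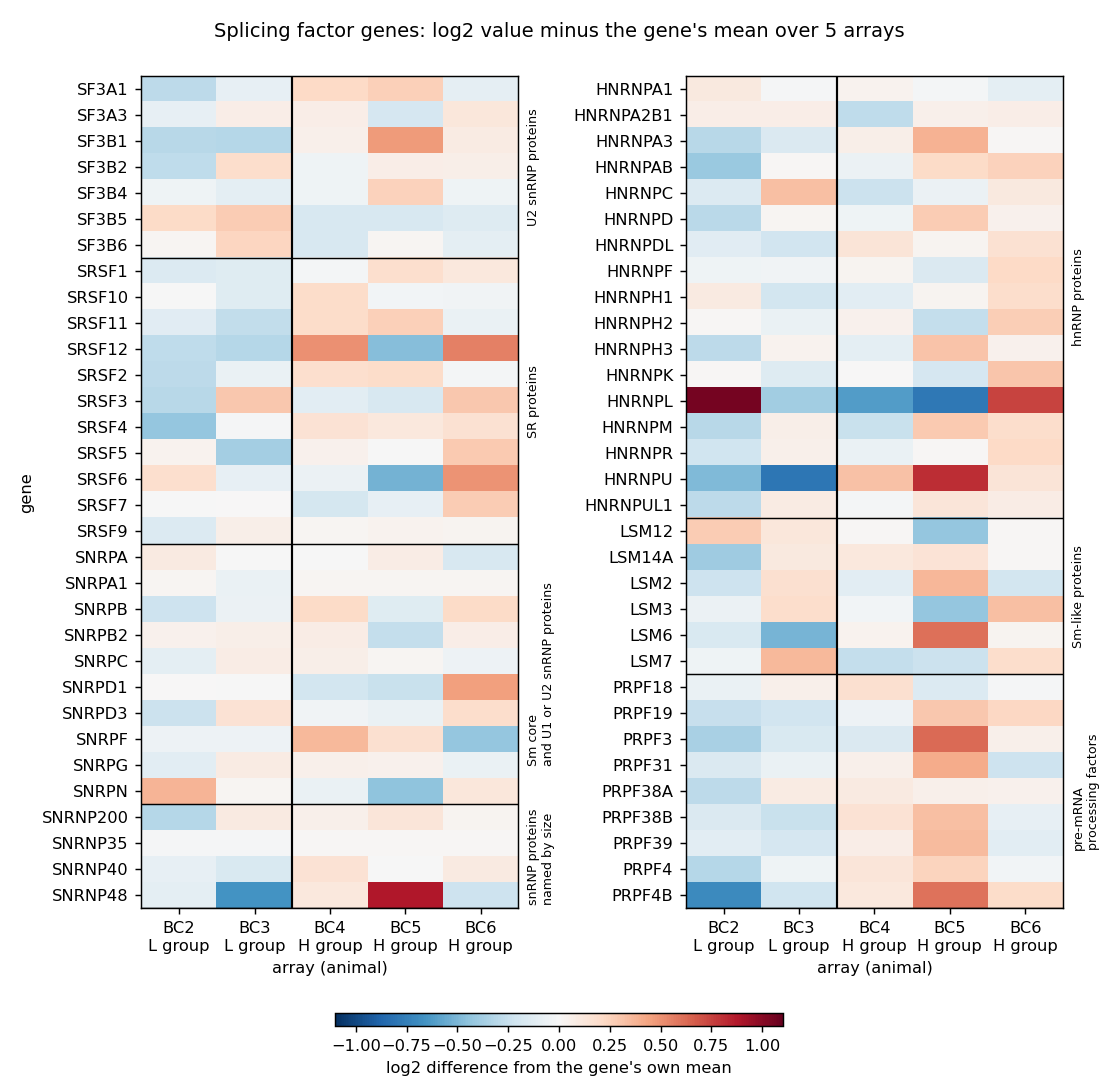
Log2 value of each of the 64 splicing factor genes minus its own mean over the 5 arrays, as colour, with the arrays of the L group (BC2, BC3) left and those of the H group (BC4, BC5, BC6) right of the vertical line, and genes grouped by role. BC2 is the lowest array for 27 of the genes and BC5 the highest for 25.

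The U2 snRNP binds the branch point of the intron, and its SF3A and SF3B proteins hold it there. Of the 7 genes, 5 had a higher mean in H, with a median difference of 0.07 that was -0.07 without BC2. SF3B5, a small subunit of SF3B, had log2 values of 10.11 and 10.18 in L and 9.72, 9.72 and 9.75 in H. All 3 H arrays were below both L arrays, and the spread within each group was far smaller than the gap. The group means were 9.73 ± 0.0183 (SD, n = 3) and 10.14 ± 0.0495 (SD, n = 2), and differed by -0.41 or 1.33-fold lower in H (standard error, SE, 0.028, limma unadjusted p = 0.000371, adjusted p = 0.530). This was the largest difference in relation to its error among members away from the floor. With a single L array left, SF3B5 passed the threshold both without BC2 (limma adjusted p = 0.0585) and without BC3 (0.0627), as 160 and 286 probe sets then did, and the lone L array is there assumed to vary like the H arrays. Without BC4, BC5 or BC6 its limma adjusted p was 0.640 to 0.915.

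SF3B1, the large subunit that clamps the branch helix, went the other way from SF3B5. It was at 12.43 and 12.42 in L and 12.79, 13.21 and 12.82 in H, so the groups did not overlap. The difference was 0.52 (SE 0.163, limma unadjusted p = 0.0435, adjusted p = 1), and a dimmer probe set of the gene differed by 0.72. SF3B6, the subunit that sits at the branch point adenosine, was at 9.99 and 10.21 in L and 9.79, 9.99 and 9.86 in H. Its difference was -0.22 (SE 0.104, limma adjusted p = 1), and the highest H value lay just under the lower L value. SF3A1 differed by 0.32, SF3B4 by 0.13, SF3B2 by 0.07 and SF3A3 by 0.01, all with overlapping groups. The mean differences of subunits of 1 complex thus ran from -0.41 to 0.52, and none of them passed the test.

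SR proteins carry repeats of arginine and serine and promote the use of exons to which they bind. Of the 11 genes, 9 had a higher mean in H, with a median difference of 0.23 that was 0.13 with the mean over the probe sets of each gene. For 4 of the 11 all H arrays lay above both L arrays, as for 8.46% of genes above the floor. SRSF1, the SR protein studied longest, was at 10.37 and 10.39 in L and 10.50, 10.70 and 10.64 in H. Its difference was 0.23 (SE 0.0738, limma unadjusted p = 0.0440, adjusted p = 1), and its 3 probe sets all had the higher mean in H, by 0.08 to 0.23. SRSF4 was at 9.90 and 10.31 in L and 10.48, 10.44 and 10.49 in H. The H arrays lay within 0.05 of each other, while the L arrays were 0.42 apart. The difference of SRSF4 was 0.37 (SE 0.148, limma adjusted p = 1), or 0.16 without BC2 and 0.57 without BC3, where it passed (limma adjusted p = 0.0541).

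SRSF2, which acts at exon enhancers, was at 11.38 and 11.60 in L and 11.85, 11.87 and 11.65 in H, a difference of 0.30. SRSF11, an SR-related protein, was at 12.67 and 12.53 in L and 13.00, 13.06 and 12.73 in H, a difference of 0.33. In both genes the lowest H array was BC6, close to the L values. All 5 probe sets of SRSF11 had a higher mean in H, by 0.25 to 0.53. SRSF12 had the widest spread of the SR genes, from 3.70 on BC5 to 4.72 on BC6, with L at 3.89 and 3.86, and a difference of 0.49. SRSF9 spanned only 10.81 to 11.02 over the 5 arrays. SRSF3 and SRSF7 differed by 0.01 and 0.00, with 95% intervals of -0.83 to 0.85 and -0.53 to 0.53. BC6 was the highest array for 6 of the 11 SR genes and the lowest for none, against 20.7% and 19.0% of other genes.

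SRSF6 and SRSF10 gave no single direction. The 6 probe sets of SRSF6 differed by -0.21 to 0.40, with 4 higher and 2 lower in H, and the brightest was at 11.12 and 10.84 in L and 10.87, 10.41 and 11.43 in H. Of the 4 measured probe sets of SRSF10, 2 were higher and 2 lower, by -0.22 to 0.11.

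**Figure D4:**
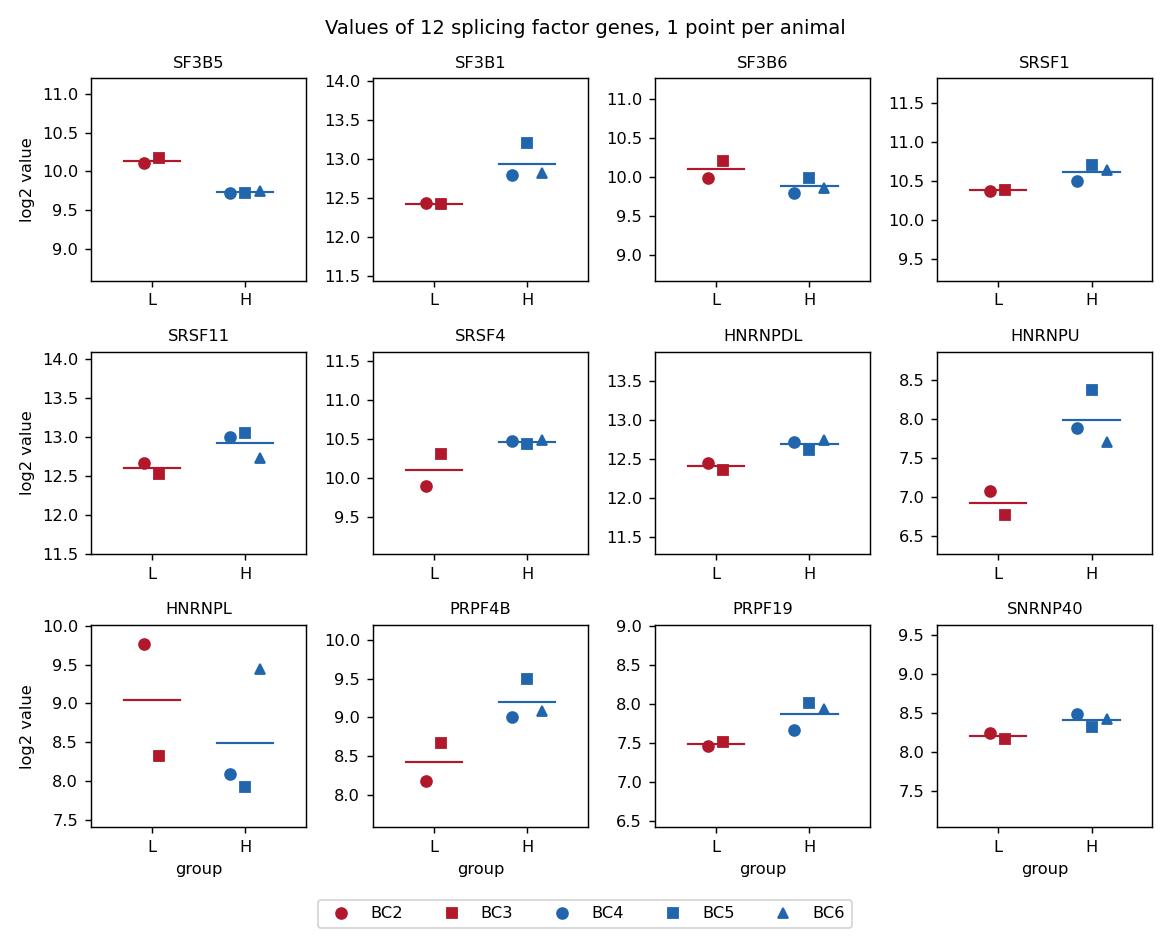
Log2 values of 12 splicing factor genes, with each animal as a point (L animals BC2 and BC3 in red, H animals BC4, BC5 and BC6 in blue), with a line at each group mean and the same height of axis, in log2 units, in every panel. SF3B5 and SF3B6 lie lower in H, HNRNPL overlaps between the groups with values from 7.92 to 9.76, and the other 9 genes have all H points above both L points.

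The Sm proteins form the ring around the RNA of most spliceosomal snRNPs, and other SNRP genes encode proteins particular to U1 or U2. Here 7 of 10 genes had a higher mean in H, and none had groups apart, against 18.7% of genes above the floor. The median difference was 0.02, which turned to -0.02 with median centring of the arrays and to -0.05 without BC2. SNRPA1, a U2 protein, was at 8.74 and 8.65 in L and 8.74, 8.74 and 8.74 in H. Its interval of the difference was -0.05 to 0.15, the narrowest of the group, and rests on tied values, since BC2, BC4 and BC6 hold the same one. SNRPB, a core Sm protein, was at 7.70 and 7.87 in L and 8.14, 7.80 and 8.14 in H, a difference of 0.25 in which BC5 fell inside the L range. SNRPN, its close relative best known from brain, was at 9.02 and 8.67 in L and 8.58, 8.21 and 8.77 in H, a difference of -0.33. Its other probe set differed by -0.37. The proteins of SNRPB and SNRPN are nearly the same, and whether a probe set of one also takes up the transcript of the other was not tested. SNRPD3, the brightest of the group, ran from 10.03 on BC2 to 10.46 on BC6 with a difference of 0.07. For SNRPC, SNRPG, SNRPD1, SNRPF, SNRPA and SNRPB2 the differences were -0.09 to 0.09.

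The genes named SNRNP and a size encode proteins of the U5 snRNP and of the minor spliceosome, which removes a rare class of introns. All 4 had a higher mean in H, with a median difference of 0.20. SNRNP40, a U5 protein, was at 8.24 and 8.17 in L and 8.49, 8.33 and 8.43 in H. Its difference was 0.21 (SE 0.0647, limma unadjusted p = 0.0391, adjusted p = 1), and 3 of its 4 probe sets were higher and 1 lower, by -0.01. SNRNP200, the helicase that unwinds the U4 and U6 RNAs, was at 8.69 and 9.10 in L and 9.06, 9.14 and 9.03 in H, with only BC2 set apart. Its difference of 0.18 was -0.02 without BC2.

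In the minor spliceosome genes, 1 varied widely and the other was near the floor. SNRNP48 was at 7.64 and 7.09 in L and 7.86, 8.63 and 7.52 in H, a difference of 0.64 (SE 0.446, limma adjusted p = 1) in which BC6 lay below BC2. SNRNP35 was at 2.41 on both L arrays and 2.43 on all H arrays, near the floor, with no spread within either group. Its difference of 0.02 had the smallest p of the members (limma unadjusted p = 0.000198, adjusted p = 0.494), rests on tied values, and turned to -0.02 with median centring of the arrays.

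The hnRNPs coat nascent transcripts and often repress the sites they cover. Of the 17 genes, 13 had a higher mean in H. The median difference was 0.14, or 0.08 without BC2, 0.24 without BC3 and 0.06 without BC6. Groups were apart in 3 genes (17.6%), against 18.7% of genes above the floor. All 3 had H above L, as 8.46% of genes did. HNRNPU, which also ties RNA to chromatin, was at 7.08 and 6.78 in L and 7.89, 8.38 and 7.71 in H. This was the widest difference of all 64 genes, and the lowest H array lay 0.63 above the higher L array. The group means were 7.99 ± 0.347 (SD, n = 3) and 6.93 ± 0.219 (SD, n = 2), and differed by 1.06 or 2.09-fold (SE 0.268, limma unadjusted p = 0.0232, adjusted p = 1). It stayed between 0.87 and 1.22 in all alternative settings.

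HNRNPDL, a relative of the AU-rich element binding protein HNRNPD, was at 12.45 and 12.36 in L and 12.72, 12.61 and 12.74 in H. The difference was 0.28 (SE 0.0583, limma unadjusted p = 0.0127, adjusted p = 1), with 0.11 for the other probe set. HNRNPA3 was at 10.20 and 10.35 in L and 10.58, 10.89 and 10.52 in H, a difference of 0.39. HNRNPD itself was at 12.36 and 12.68 in L and 12.61, 12.94 and 12.71 in H, where BC4 fell below BC3, and differed by 0.23. HNRNPA1, which counters SRSF1 at many exons, was the steadiest hnRNP gene, at 11.16 and 11.04 in L and 11.09, 11.03 and 10.95 in H. Its difference was -0.08 with a 95% interval of -0.28 to 0.12.

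HNRNPL, which binds repeats of C and A, varied widely within both groups. It was at 9.76 and 8.32 in L and 8.09, 7.92 and 9.45 in H, so that BC2 and BC6 were high and the 3 other arrays low. The difference was -0.55 (SE 0.777, limma adjusted p = 1) and 0.16 without BC2. Probe sets disagreed for HNRNPK, a binder of C-rich RNA, with 0.11 for the brighter and -0.36 for the dimmer one. They disagreed for HNRNPA2B1 too, at -0.12 to 0.01 over 3 probe sets. HNRNPC, which covers runs of U, differed by -0.15 and -0.27 on its 2 probe sets. BC6 was above the gene's own mean for 16 of the 17 hnRNP genes, 45 of all 64 members and 2574 of 5613 other genes. It was the highest array for 7 of the 17 (41.2%), against 20.7% of other genes. BC6 was also the array with the highest macrophage and fibroblast marker means, whose part in this was not tested.

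The Sm-like proteins LSM2, LSM3, LSM6 and LSM7 belong to the ring on U6 RNA and to a related ring that acts in mRNA decay, while LSM12 and LSM14A are longer proteins of the cytoplasm. Means were higher in H for 3 of 6 genes, with a median difference of -0.03 that was -0.20 without BC2 and 0.13 without BC3. LSM6 was at 7.11 and 6.77 in L and 7.32, 7.88 and 7.31 in H. The groups were apart, with a difference of 0.56 (SE 0.261, limma adjusted p = 1) and 0.08 for the other measured probe set. LSM7, LSM3 and LSM2 of the same ring differed by -0.25, -0.11 and 0.04, all with overlapping groups. LSM12 was at 5.80 and 5.64 in L and 5.53, 5.09 and 5.53 in H, a difference of -0.33, but its dimmer probe set differed by 0.38. LSM14A, a protein of P bodies, was at 10.30 and 10.80 in L and 10.81, 10.84 and 10.71 in H, with BC2 alone set apart, and its difference of 0.24 was -0.02 without BC2.

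The PRPF genes carry the names of yeast pre-mRNA processing mutants and encode tri-snRNP proteins, a kinase and a ubiquitin ligase, among others. All 9 had a higher mean in H, with a median difference of 0.30, and for 5 all H arrays lay above both L arrays, as for 8.46% of genes above the floor. This was the role group with the largest median. With median centring 8 of the 9 means were higher in H and the median was 0.25. All H arrays then lay above both L arrays in 3 genes, against 5.37% of genes above the floor. Without BC2 7 of the 9 means were higher in H, and without BC4 8. PRPF4B, a kinase that phosphorylates tri-snRNP proteins, was at 8.19 and 8.67 in L and 9.01, 9.49 and 9.09 in H. Its difference was 0.76 or 1.70-fold (SE 0.248, limma unadjusted p = 0.0468, adjusted p = 1), and 0.52 to 1.0 when any 1 animal was left out. PRPF19, the ubiquitin ligase of the complex that activates the spliceosome, was at 7.46 and 7.51 in L and 7.66, 8.01 and 7.94 in H, a difference of 0.39 (SE 0.131, limma unadjusted p = 0.0514, adjusted p = 1).

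Of the proteins that bind the U4 and U6 RNAs, PRPF3 was at 7.82 and 8.01 in L and 8.02, 8.80 and 8.24 in H, a difference of 0.44. The lowest H array of PRPF3 lay 0.01 above the higher L array, so the groups were barely apart. PRPF4, its partner, was at 7.45 and 7.71 in L and 7.89, 8.01 and 7.73 in H, a difference of 0.30. PRPF31, of the same particle, differed by 0.19 with overlapping groups. PRPF38B was at 7.57 and 7.48 in L and 7.89, 8.06 and 7.63 in H, and both of its measured probe sets were higher in H, by 0.33 and 0.55. PRPF39, which acts with the U1 snRNP and gave the brightest signal of the group, differed by 0.25, PRPF38A by 0.17 and PRPF18, of the final step of splicing, by 0.01. BC5 was the highest array for 7 of the 9 genes, against 22.3% of other genes. Without BC5 all 9 means were still higher in H, and the median was 0.21. The remaining H arrays then lay above both L arrays in 5 genes, against 14.04% of genes above the floor. Such counts and shares grow by construction when an array is left out. BC5 was the array with the lowest adipocyte and highest muscle marker means and the widest Gapdh distance, and their part in the values on BC5 was not tested.

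**Figure D5:**
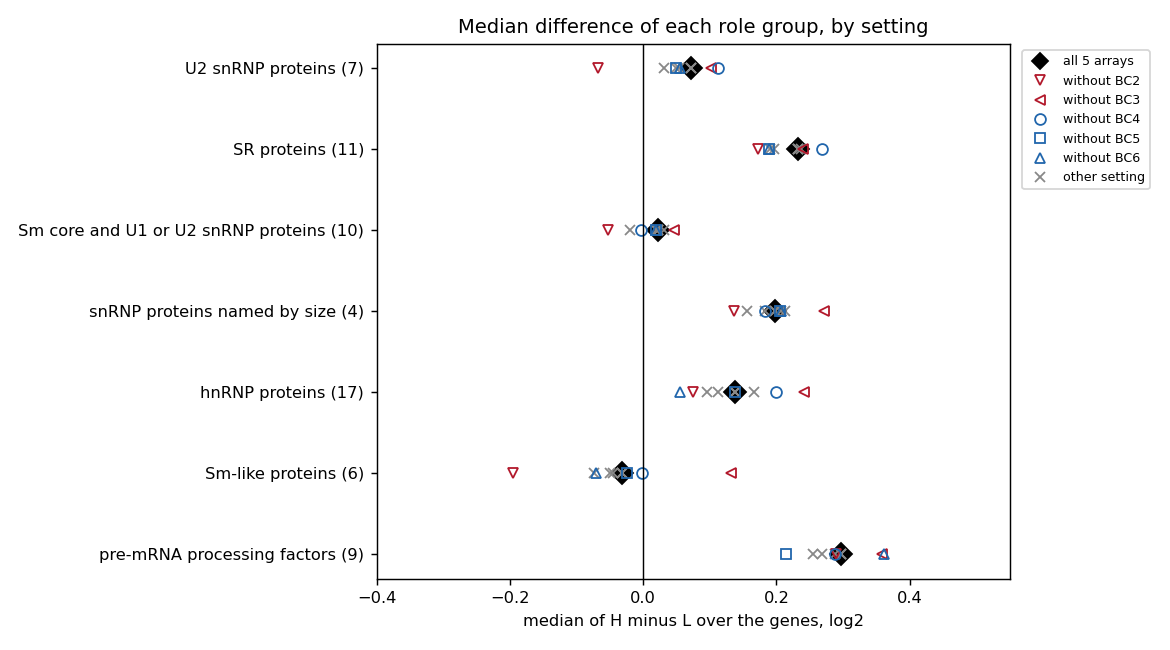
Median difference between the groups, H minus L on the log2 scale, over the genes of each role group, with the number of genes in brackets, for all 5 arrays (black), without each animal in turn (red for L, blue for H animals) and in the other settings that keep the same probe set per gene (grey). The pre-mRNA processing factors stay between 0.21 and 0.36 when an animal is left out, while the U2 snRNP, Sm core and Sm-like groups lie on both sides of 0.

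Members with more than 1 measured probe set gave a check within the array. For 14 of 20 such genes all probe sets had the same direction, higher in H for 12 and lower in H for HNRNPC and SNRPN. The other 6, HNRNPA2B1, HNRNPK, LSM12, SNRNP40, SRSF10 and SRSF6, had probe sets in both directions. The probe sets of a gene share the same RNA, so they say nothing about the spread between animals.

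The other genes of the pathway were read from the same fit. Of 109 listed, 70 had a probe set above the floor, and limma passed 0 of the 70. An unadjusted limma p under 0.05 was reached by 9 of them, 5 higher and 4 lower in H, against 5.18% of genes above the floor. Of the 4 lower, XAB2 was near the floor, at 2.53 and 2.50 in L and 2.48 on all H arrays. The mean of H was higher for 44 (62.9%, against 49.4%) and lower for 26, with a median difference of 0.10. All H arrays lay above both L arrays in 11 and below in 10, against 8.46% and 10.3% of genes. Regulators of splice site choice outside the named families had a higher mean in H for 18 of 22 genes, with H above both L arrays in 9 and below in 1, against the same shares. Among them RBM25 was at 8.56 and 8.38 in L and 9.11, 9.20 and 8.89 in H, a difference of 0.59, and SRRM1, a coactivator rich in SR repeats, differed by 0.37. KHDRBS1 (Sam68), the 1 gene of these with H below both L arrays, was at 9.55 and 9.40 in L and 9.26, 9.18 and 9.17 in H, a difference of -0.27. Among 5 measured kinases of SR proteins, DYRK1A differed by 0.30 with all H arrays above both L arrays. CLK3 differed by -0.08 with all H arrays below both. The shares of genes above the floor were 8.46% and 10.3%.

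Genes of snRNP assembly had mostly lower means in H. The SMN complex loads Sm rings onto the snRNAs in the cytoplasm, and 7 of its 9 measured genes and partners had a lower mean in H, with a median difference of -0.13. H was below both L arrays in 4 of the 9, as in 10.3% of genes above the floor, and the difference between this list and the members was not tested. GEMIN2, which holds the Sm proteins, was at 9.63 and 9.59 in L and 9.12, 9.30 and 9.28 in H, a difference of -0.38 (SE 0.0714, limma unadjusted p = 0.00987, adjusted p = 1). GEMIN8 was at 7.81 and 7.82 in L and 7.54, 7.50 and 7.63 in H, a difference of -0.25. The median of 0.02 given above is for the Sm genes, whose proteins are loaded, together with the U1 or U2 genes of that group. Among 17 helicases and proteins of the activated spliceosome, H was above both L arrays in 1 and below in 4. These compare with 8.46% and 10.3% of genes above the floor, and XAB2, near the floor, was 1 of the 4. No measured gene of branch point recognition (4), the tri-snRNP (6) or the exon junction complex (7) had groups apart, against 18.7% of genes.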

How the data were processed

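Total RNA of 5 pigs was measured on Affymetrix porcine arrays, 1 per animal. The authors deposited 1 log2 value per probe set and array, after background correction and normalization. Their methods name GCRMA for these steps and the processing notes name RMA, so which was used is not settled. The number of arrays, not a read depth, limits the precision. Each limma p sets the difference between the groups against the spread between animals within them, which limma moderates over all tested probe sets.

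From 24123 probe sets, 124 controls were left out and 23999 tested with limma 3.58.1 in R 4.3.3, H minus L, with no covariate. Tables were made with pandas 2.3.3. Symbols came from the platform's annotation (13732 probe sets had none and 198 several), and all 102 probe sets of the members have the same symbol in RefSeq by gene ID. At the floor on all arrays were 31.0% of probe sets. Differences under 1e-06 have no direction.

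The members and lists were chosen with earlier results of these data known. Genes named are those whose groups do not overlap, the brightest, the most and the least variable and up to 3 with the smallest p of each role, those whose probe sets differ in sign, and up to 3 other splicing genes in each direction. A few further members, CLK3 and XAB2 are also given, after their values were seen. Alternatives were an adjusted p of 0.05 alone, leaving out the dimmest 40%, median centring, quantile normalization, an intensity trend, robust eBayes, array weights, the mean over probe sets, the probe set with the largest SD, and leaving out each animal. The fit was tested on simulated data. RNA-Seq counts, sequences and coordinates were not analysed here.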

Additional observations from a re-analysis of the deposited data

How the results depend on the processing

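No paired analysis was possible because each animal number occurs in only 1 group. Of the 64 members, 36 kept the direction of their difference in the 10 alternative settings that can change it, and 25 turned without 1 animal. Of the 19 whose groups do not overlap, 17 kept it, SNRNP35 and LSM12 being the exceptions. For these 19, leaving out an animal or weighting the arrays cannot turn the direction. Nor can a change of probe set where a gene has only 1, so the count of 17 rests on the remaining settings. No member passed under any alternative that kept all 5 arrays. Where a value changed, the cause was not tested. With 3 arrays against 2 and a floor under 31.0% of probe sets, small differences cannot be resolved. The groups-apart count grows by construction when an array is left out.

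Without 1 animal, 0 to 2 members and 0 to 286 probe sets passed, 4 to 9 members had an unadjusted p under 0.05, and groups did not overlap in 26 to 42. The shares over all genes above the floor rose as well. Without BC3, H was above L in 34 members and below in 8, against 27.0% and 26.2% of genes. Without BC4 these were 22 and 4, against 14.3% and 19.3%. The members under that p were 4, 8 and 9 without BC4, BC5 and BC6, against 3.63%, 3.62% and 4.22% of probe sets. This share of probe sets was larger without BC2 or BC3. Members with a higher mean in H were 39 to 53, against 46.2% to 52.9% of genes. The median difference ran from 0.072 to 0.23 over all members, -0.068 to 0.11 for U2 snRNP, 0.17 to 0.27 for SR, -0.053 to 0.046 for Sm core, 0.14 to 0.27 for snRNP proteins named by size, 0.055 to 0.24 for hnRNP, -0.20 to 0.13 for Sm-like genes and 0.21 to 0.36 for pre-mRNA processing factors. The differences that turned ran from -0.068 to 0.10 for SF3A3, -0.034 to 0.18 for SRSF9, -0.13 to 0.27 for SNRPD3, -0.022 to 0.39 for SNRNP200, -1.27 to 0.165 for HNRNPL, -0.016 to 0.49 for LSM14A, -0.071 to 0.092 for PRPF18, -0.34 to 0.17 for SRSF6, -0.023 to 0.22 for HNRNPK, -0.39 to 0.085 for HNRNPC, -0.017 to 0.17 for HNRNPF, -0.062 to 0.24 for HNRNPH1, -0.074 to 0.19 for HNRNPH2, -0.028 to 0.35 for HNRNPUL1, -0.16 to 0.25 for LSM2, -0.29 to 0.083 for LSM3, -0.022 to 0.36 for PRPF38A, -0.16 to 0.31 for SF3B2, -0.15 to 0.019 for SNRPB2, -0.077 to 0.12 for SNRPC, -0.22 to 0.13 for SNRPD1, -0.069 to 0.32 for SNRPF, -0.078 to 0.12 for SNRPG, -0.29 to 0.31 for SRSF3, -0.14 to 0.097 for SRSF7, -1.17 to 0.39 for ADIPOQ and -1.05 to 1.05 for ALB.

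Without the dimmest 40% of probe sets, 4 of 63 members had an unadjusted limma p under 0.05, against 4.42% of those probe sets. Median centring shifts every difference by -0.042 and so turned those from 0 up to that size: SNRNP35 (-0.018), SF3A3 (-0.031), PRPF18 (-0.027), SNRPC (-0.021), SNRPD1 (-0.037), SNRPG (-0.019), SRSF3 (-0.035) and FABP4 (-0.0043). Quantile normalization turned FABP4 (-0.0100) and SNRPD1 (-0.0092), and array weights ADIPOQ (0.067), LSM2 (-0.024), SNRPD1 (-0.018) and SRSF3 (-0.0023). With the mean over probe sets, the median of SR genes was 0.13, and LSM12 (0.023), HNRNPK (-0.13), SRSF10 (-0.021) and SRSF6 (0.093) turned. With the probe set of the largest SD, the medians were 0.17 over all members and 0.14 for Sm-like genes, and LSM12 (0.38), HNRNPK (-0.36) and SRSF10 (-0.041) turned.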
